A study of Homo sapiens with 6 samples.

Results

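The insulin-like growth factor (IGF) axis was described through 10 gene symbols: the binding proteins IGFBP1 to IGFBP7, the receptors IGF1R and IGF2R, and the ligand IGF2. Rows of the deposited expression table with one of these symbols were taken, which gave 9 of the 10 among 31835 genes. IGFBP5 had no row under its symbol and was not analysed here. The assay was RNA-seq, and the cells were MDA-MB-231, a widely used human triple-negative breast cancer line with a mesenchymal appearance. The 6 libraries were 3 from cells that overexpressed ADAMTS1, labelled ADAMTS1, and 3 from cells with the vector, labelled Vector. The ADAMTS1 protein is a metalloprotease that cells secrete into the matrix, and the comparison asks which transcripts differ when it is overexpressed. The promoter of the construct, the form of ADAMTS1 it encoded and whether the cells were a clone or a pool are not given in the labels. The axis was chosen by gene name but with the measured difference of IGFBP3 FPKM between these same groups already known, so the values of its members are given as a description and support nothing by themselves.

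IGF1 and IGF2 are small secreted ligands that resemble proinsulin and promote growth and survival. They signal through IGF1R, a receptor tyrosine kinase that recruits the IRS adaptors and the PI3K and AKT kinases, while IGF2R, which is also the cation-independent mannose 6-phosphate receptor, takes IGF2 to lysosomes. The IGF binding proteins hold the ligands outside the cell, lengthen their life and limit or permit their access to the receptor, and proteases that cut the binding proteins release the ligand. IGFBP3, the main carrier of IGFs in blood, is also known for effects on growth that do not need IGFs, and it can enter the nucleus. In breast cancer the axis has been studied in connection with growth, survival and resistance to treatment.

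Levels are in FPKM, fragments per length of transcript and per mapped total, which scales each gene by its length and each library by its total. The absolute number of fragments is unknown; relative to Vector replicate 1, library depth reached 1.429 at the most. The FPKM sum of a library was between 259289 and 263001. ADAMTS1 itself had 499, 462 and 501 FPKM in the ADAMTS1 libraries and 6.56, 6.72 and 6.99 FPKM in the Vector libraries, so each library matched its label. Each change below is the ADAMTS1 mean minus the Vector mean of log2(FPKM + 1), given ± its standard error, from a limma fit to the 11897 genes with a mean of at least 1 FPKM. Whether the libraries of 1 group are separate cultures is not stated in the labels, and this error may be technical. All 6 markers of the line were expressed, among them VIM, which encodes the mesenchymal filament vimentin, at 313 to 334 FPKM in ADAMTS1 libraries and 302 to 313 FPKM in Vector libraries, and the receptor kinase gene AXL at 277 to 283 FPKM in ADAMTS1 libraries and 283 to 309 FPKM in Vector libraries. Limma called 0 of the 6, where it called 0.0672% of all tested genes. VIM and AXL had an unadjusted p under 0.05, with changes of 0.071 and −0.10. Of the 10 luminal markers, the oestrogen receptor gene ESR1 was under 0.05 FPKM in every library, while 6 were in the fit: the keratins KRT8, KRT18 and KRT19 were at 34.7 to 78.1 FPKM over the 6 libraries, and ERBB2, EPCAM and FOXA1 were lower. The summed level of the 4 haematopoietic markers with a row, of 7 on the list, was 0.0365 to 0.448 FPKM in ADAMTS1 libraries and 0.196 to 0.524 FPKM in Vector libraries. The 7 of 8 fibroblast markers with a row summed to 1.13 to 1.45 FPKM in ADAMTS1 libraries and 1.45 to 1.57 FPKM in Vector libraries, and limma called 0 genes of the luminal, hepatocyte and mitochondrially encoded lists. An unadjusted p under 0.05 was reached by 0 of 6 tested luminal genes, 1 of 1 hepatocyte gene and 3 of 13 mitochondrially encoded genes, against 12.2% of all tested genes. The hepatocyte gene was SERPINA1, a protease inhibitor, at 2.24 to 2.54 FPKM in ADAMTS1 libraries and 3.46 to 3.83 FPKM in Vector libraries (change −0.46). The part of these markers in the results below was not tested.

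Of the 9 members with a row, 7 reached the mean of 1 FPKM and entered the fit: 5 binding proteins and both receptors. IGFBP3 rose, and the other 6 did not pass the threshold of an adjusted p under 0.05. That is 1 of 7 members, where 0.0672% of all tested genes (8 of 11897) passed in either direction and 0.0588% passed as higher; since the axis was chosen with this contrast in view, nothing is read from the difference. Of the 7 changes 4 were positive and 3 negative, with a median of 0.014, against a median of −0.0078 over all tested genes. The groups did not overlap for IGFBP3, which was higher, and for IGF2R, which was lower. That is 2 of 7, where the groups did not overlap for 18.8% of all tested genes, with 8.15% higher and 10.6% lower.

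**Figure D1:**
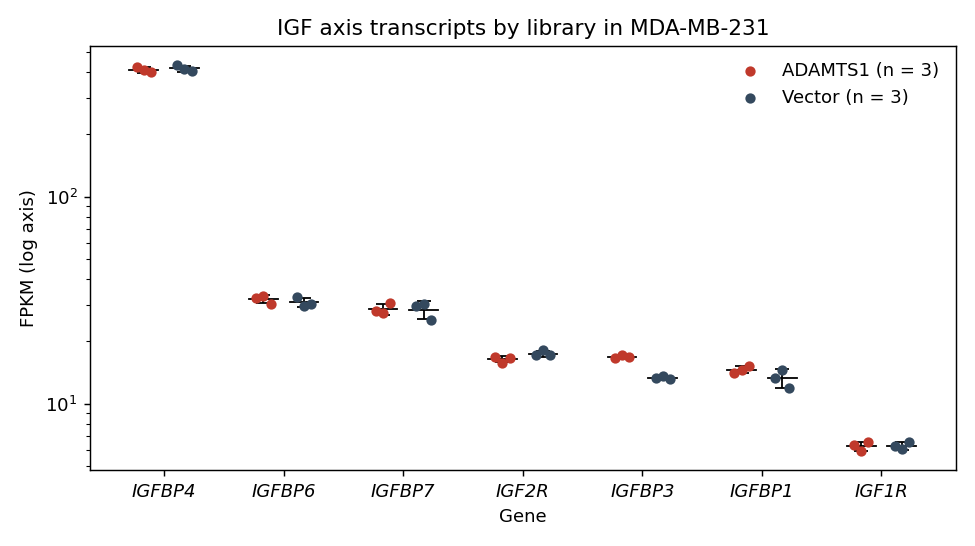
FPKM (log axis) of the 7 tested IGF axis genes in each library, 3 ADAMTS1 and 3 Vector; points are libraries, long bars the means and error bars the SD. IGFBP4 lies between 398 and 431 FPKM in all 6 libraries, and IGFBP3 is at 16.6 to 17.2 FPKM in ADAMTS1 libraries and 13.1 to 13.7 FPKM in Vector libraries.

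IGF2, the ligand among the members, was at or next to 0 in both groups. It was listed at 0 in ADAMTS1 replicates 1 and 3 and at 0.0192 FPKM in ADAMTS1 replicate 2, and at 0 in each Vector library. It thus did not reach the fit, and no fold is given against values of 0. IGFALS, which encodes the acid-labile subunit that joins IGFBP3 and IGF in blood, was at 0.0377 to 0.0773 FPKM in ADAMTS1 libraries and 0 to 0.0214 FPKM in Vector libraries. IGF1 and INS had no row under their symbols and were not analysed here.

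IGF1R (ENSG00000140443, hg38 chromosome 15, 98648539 to 98964530, plus strand), the signalling receptor for both IGFs, was at 6.33, 5.92 and 6.53 FPKM in ADAMTS1 libraries and 6.23, 6.04 and 6.56 FPKM in Vector libraries. The 2 groups overlapped over almost their whole range. The change was −0.0038 ± 0.050, with a 95% interval of −0.12 to 0.11, so a change of more than 1.08-fold up or below 0.919-fold lay outside the interval on the FPKM + 1 scale. INSR, the insulin receptor, which can pair with IGF1R in hybrid receptors, was lower than IGF1R in every library. The ratio of IGF1R to INSR was 3.93, 3.97 and 4.21 in ADAMTS1 libraries and 3.60, 3.74 and 4.13 in Vector libraries, with overlapping groups. The table lists 4 further entries inside the IGF1R span, 3 of them on the opposite strand, and none of the 4 exceeded 0.854 FPKM.

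IGF2R (ENSG00000197081, chromosome 6, 159969082 to 160113507, plus strand), the receptor that clears IGF2 and sorts lysosomal enzymes, was at 16.8, 15.8 and 16.6 FPKM in ADAMTS1 libraries and 17.1, 18.2 and 17.1 FPKM in Vector libraries. Each ADAMTS1 library lay below each Vector library, and the nearest libraries of the groups were close together. The change of −0.084 ± 0.038 did not pass (limma adjusted p = 0.435), with a 95% interval of −0.17 to 0.0062. Transcripts of IGF2R were 2.66, 2.67 and 2.55 times those of IGF1R in ADAMTS1 libraries and 2.75, 3.01 and 2.61 times in Vector libraries, and these ratios overlapped. Among other genes of mannose 6-phosphate sorting, the route IGF2R serves, limma called 0 of 7, against 0.0672% of all tested genes. An unadjusted p under 0.05 was reached by 0 of the 7, against 12.2% of all tested genes. M6PR, the smaller mannose 6-phosphate receptor, was at 32.1 ± 0.200 FPKM in ADAMTS1 cells and 31.6 ± 1.70 FPKM in Vector cells (SD, n = 3 each).

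IGFBP3 (ENSG00000146674, chromosome 7, 45912245 to 45921874, minus strand) had 16.6, 17.2 and 16.8 FPKM in ADAMTS1 libraries and 13.3, 13.7 and 13.1 FPKM in Vector libraries. The lowest ADAMTS1 library was well above the highest Vector library, and neither group had a library that stood apart. The means were 16.9 ± 0.325 FPKM in ADAMTS1 cells and 13.4 ± 0.282 FPKM in Vector cells (SD, n = 3 each), a ratio of 1.26. The change was 0.31 ± 0.032 with a 95% interval of 0.24 to 0.39 (limma adjusted p = 0.0417 over all tested genes). In size it lay above the middle 95% of all tested genes (−0.26 to 0.25), and 187 tested genes had a larger positive change. Its spread was small: the residual SD was 0.027 on the log2 scale, against a median of 0.068 over all tested genes, and 7.30% of tested genes had a smaller one. The call did not survive the loss of any single library. Without each of the 3 ADAMTS1 and each of the 3 Vector libraries in turn the change stayed between 0.30 and 0.33, while the adjusted p was between 0.114 and 0.212. The call was also lost with no filter on low values (adjusted p = 0.159), with a common sum of FPKM (0.0514), with eBayes without trend (0.161) and with the replicate number as a block (0.174).

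IGFBP1 (ENSG00000146678, chromosome 7, 45888360 to 45893660, plus strand), a binding protein known from liver, where insulin lowers it, and from decidua, lies next to IGFBP3. The 3′ ends of these genes face each other across 18584 bases. IGFBP1 was at 14.1, 14.6 and 15.2 FPKM in ADAMTS1 libraries and 13.3, 14.6 and 11.9 FPKM in Vector libraries. The groups overlapped, because Vector replicate 2 was as high as the ADAMTS1 libraries, and Vector replicate 3 was the lowest of the 6. The change was 0.13 ± 0.069 with a 95% interval of −0.030 to 0.30, and it did not pass (limma adjusted p = 0.499); without Vector replicate 3 it was 0.061, and without Vector replicate 2 it was 0.20.

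The 2 neighbours had nearly the same level in Vector cells, 13.4 FPKM for IGFBP3 and 13.3 FPKM for IGFBP1 on average. The ratio of IGFBP3 to IGFBP1 was taken in each library. It was 1.18, 1.18 and 1.11 in ADAMTS1 libraries and 0.9999, 0.935 and 1.10 in Vector libraries. The groups of this ratio did not overlap, but ADAMTS1 replicate 3 (1.106) and Vector replicate 3 (1.102) almost met. The 95% intervals of the 2 changes also overlapped, which is no test of their difference. Whether the change of IGFBP3 exceeded that of IGFBP1 was not tested. Within 1 Mb on either side of the pair the table held 20 entries, the pair included. Besides the pair, 5 were in the fit and 0 of these passed, where 0.0672% of all tested genes did. The lowest limma adjusted p of the 5 was 0.209, that of the non-coding RNA SNHG15, and 1 of the 5 had an unadjusted p under 0.05. SNHG15 was chosen after its values were seen; it was at 10.3, 11.0 and 10.8 FPKM in ADAMTS1 libraries and 8.65, 9.74 and 8.56 FPKM in Vector libraries.

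**Figure D2:**
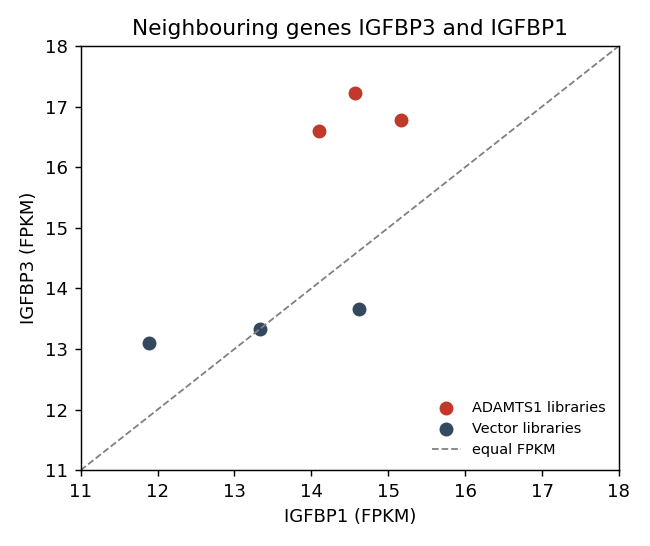
IGFBP3 against IGFBP1 in each library, both in FPKM; red points are the 3 ADAMTS1 libraries, dark points the 3 Vector libraries, and the dashed line marks equal levels. The ADAMTS1 libraries lie above the line with ratios of 1.11 to 1.18, and the Vector libraries lie around it with ratios of 0.935 to 1.10.

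IGFBP4 (ENSG00000141753, chromosome 17, 40443450 to 40457725, plus strand), an inhibitor of IGF action that is cut by the protease PAPPA, was by far the most abundant member. It was at 422, 408 and 398 FPKM in ADAMTS1 libraries and 431, 412 and 405 FPKM in Vector libraries, with overlapping groups. By mean FPKM it ranked 43 among the 31835 genes in ADAMTS1 cells and 42 in Vector cells. The change was −0.024 ± 0.033 with a 95% interval of −0.10 to 0.055. IGFBP4 transcripts were 25.4, 23.7 and 23.7 times those of IGFBP3 in ADAMTS1 libraries and 32.3, 30.1 and 30.9 times in Vector libraries.

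IGFBP6 (ENSG00000167779, chromosome 12, 53097436 to 53102345, plus strand), which binds IGF2 in preference to IGF1, was at 32.6, 33.2 and 30.4 FPKM in ADAMTS1 libraries and 32.6, 29.8 and 30.2 FPKM in Vector libraries. These ranges overlapped, and the change was 0.052 ± 0.046 with a 95% interval of −0.057 to 0.16; it was 0.028 without ADAMTS1 replicate 2 or Vector replicate 2, 0.088 without ADAMTS1 replicate 3 and 0.092 without Vector replicate 1. IGFBP7 (ENSG00000163453, chromosome 4, 57030773 to 57110385, minus strand), which binds IGFs weakly and also binds insulin, was at 28.1, 27.4 and 30.6 FPKM in ADAMTS1 libraries and 29.8, 30.4 and 25.3 FPKM in Vector libraries. Here too Vector replicate 3 was the lowest of the 6. The change of 0.014 ± 0.074 had a 95% interval of −0.16 to 0.19 and was −0.067 without that library. The span of IGFBP7 shares 386 bases with POLR2B, which encodes a subunit of RNA polymerase II on the opposite strand and was at 26.8 to 28.7 FPKM over the 6 libraries; whether the counting used strand is not given in the sources used here.

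IGFBP2 (ENSG00000115457, chromosome 2, 216632828 to 216664436, plus strand), a binding protein with an integrin-binding motif, was listed at 0 in ADAMTS1 replicates 1 and 2 and in each Vector library, and at 0.0093 FPKM in ADAMTS1 replicate 3. It did not enter the fit. Among the binding proteins with a row, IGFBP4, IGFBP6, IGFBP7, IGFBP3 and IGFBP1 were above 1 FPKM.

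Summed over the binding proteins with a row, FPKM was 501 ± 11.0 in ADAMTS1 cells and 502 ± 17.7 in Vector cells (SD, n = 3 each), with overlapping groups. IGFBP4 made up 82.2%, 81.5% and 81.1% of that sum in ADAMTS1 libraries and 82.9%, 82.3% and 83.4% in Vector libraries. IGFBP3 made up 3.23%, 3.45% and 3.42% in ADAMTS1 libraries and 2.56%, 2.73% and 2.70% in Vector libraries. With IGFBP4 set aside, the sum, which includes IGFBP3, was 91.3, 92.4 and 93.0 FPKM in ADAMTS1 libraries. It was 89.1, 88.5 and 80.5 FPKM in Vector libraries, and the groups did not overlap. Since the difference of IGFBP3 was known when the axis was chosen, nothing is read from this. The levels of IGFBP6, IGFBP7 and IGFBP1 each overlapped between groups, and a joint rise of these genes was not tested. Of this smaller sum, the share of IGFBP3 was 18.3% ± 0.324 in ADAMTS1 cells and 15.6% ± 0.663 in Vector cells. The shares of IGFBP6, IGFBP7 and IGFBP1 overlapped between groups on either base.

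The order of levels differed between the groups at the place of IGFBP3. In ADAMTS1 cells it ran IGFBP4, IGFBP6, IGFBP7, IGFBP3, IGF2R, IGFBP1 and IGF1R, and in Vector cells IGFBP4, IGFBP6, IGFBP7, IGF2R, IGFBP3, IGFBP1 and IGF1R. IGFBP6 and IGFBP7 had overlapping library ranges in both groups. IGFBP3 overlapped IGF2R in ADAMTS1 cells, and IGFBP1 in Vector cells. The other neighbours in each order had separate ranges. The ratio of IGFBP3 to IGF2R was 0.986, 1.09 and 1.01 in ADAMTS1 libraries and 0.779, 0.753 and 0.765 in Vector libraries, so these transcripts were close to equal in the ADAMTS1 group and IGF2R was the higher one in the Vector group.

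**Figure D3:**
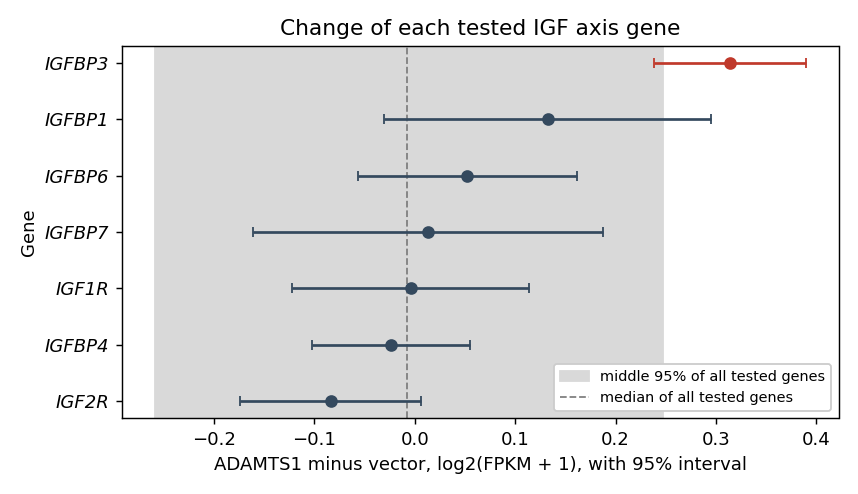
Change of each tested IGF axis gene (x axis, ADAMTS1 minus Vector in log2(FPKM + 1)) with its 95% interval from the limma fit; the grey band holds the middle 95% of all tested genes (−0.26 to 0.25) and the dashed line is their median. Only the interval of IGFBP3 lies wholly above 0, and those of the other 6 genes include 0.

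For the 6 tested members that did not pass, the 95% intervals lay between 0.886-fold and 1.23-fold on the FPKM + 1 scale, and the limma adjusted p ranged from 0.435 to 0.982. The coefficient of variation within a group was 1.93% to 10.3% over the 7 genes, lowest for IGFBP3 in ADAMTS1 cells and highest for IGFBP1 in Vector cells.

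The wider pathway was described with 8 lists of 90 genes that are not members, from ligands and receptors to adaptors, kinases, proteases and partners. Of these, 82 had a row and 62 entered the limma fit. In none of the lists did a gene pass: 0 of 62 were called (lowest adjusted p = 0.0753). Of all tested genes 0.0672% were called, so nothing is read from the count of 0. An unadjusted p under 0.05 was reached by 9 of the 62, 2 higher and 7 lower. That is 14.5% of the 62, against 12.2% of all tested genes. The groups did not overlap for 22.6% of the 62, against 18.8% of all tested genes. The same shares of all tested genes stand beside the counts for each list below, and nothing is read from those counts. The median change was −0.016, with 26 positive and 36 negative changes.

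**Figure D4:**
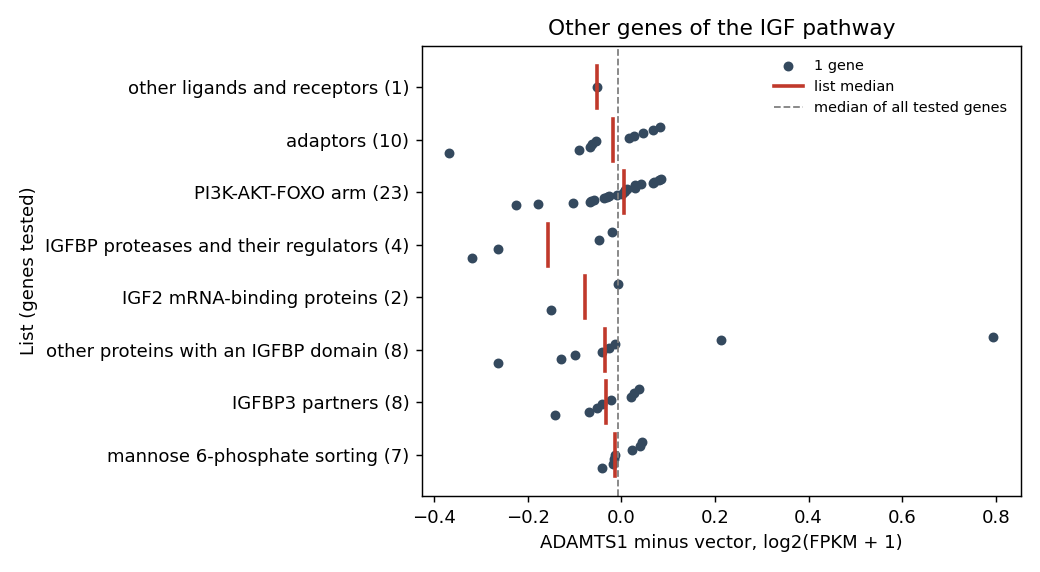
Change of each tested gene in the 8 pathway lists (x axis, ADAMTS1 minus Vector in log2(FPKM + 1)); points are genes, red bars list medians, and the dashed line is the median of all tested genes. The list medians lie between −0.16 and 0.0060, and the single point near 0.8 is ESM1, with a change of 0.79.

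Among 10 tested adaptors, which pass the signal from the receptors, the median change was −0.018 (0.017 with no filter on low values) and 1, SH2B2, had an unadjusted p under 0.05. SH2B2, named after its values were seen, encodes an adaptor of the insulin receptor and was at 1.42, 1.64 and 1.79 FPKM in ADAMTS1 libraries and 2.47, 2.40 and 2.24 FPKM in Vector libraries, with no overlap (change −0.37 ± 0.078, limma adjusted p = 0.188). IRS1, the main docking protein of IGF1R, was at 15.1, 14.4 and 15.0 FPKM in ADAMTS1 libraries and 15.7, 15.3 and 16.6 FPKM in Vector libraries, each ADAMTS1 library below each Vector library (change −0.090 ± 0.039, limma adjusted p = 0.412). SHC1, the adaptor that links receptors to RAS, was at 40.4 ± 1.62 FPKM in ADAMTS1 cells and 42.2 ± 1.23 FPKM in Vector cells, and GRB2, its partner, was at 37.7 ± 0.723 FPKM in ADAMTS1 cells and 37.0 ± 1.45 FPKM in Vector cells (SD, n = 3 each). INSR, the only tested gene among the other ligands and receptors, had a change of −0.052 ± 0.070.

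The PI3K, AKT, mTOR and FOXO arm had 23 tested genes, of which 13 changes were positive and 10 negative, with a median of 0.0060, which was below 0 under 4 alternatives, and 2 genes at an unadjusted p under 0.05. AKT1, the kinase downstream of PI3K, was at 24.1 ± 0.694 FPKM in ADAMTS1 cells and 24.6 ± 1.25 FPKM in Vector cells. RHEB, the small GTPase that activates mTORC1, was at 49.9 ± 1.79 FPKM in ADAMTS1 cells and 47.2 ± 2.80 FPKM in Vector cells. EIF4EBP1, a translation repressor that mTORC1 phosphorylates, was at 91.8 ± 10.7 FPKM in ADAMTS1 cells and 95.3 ± 1.57 FPKM in Vector cells. The 2 genes with an unadjusted p under 0.05, named after their values were seen, were PIK3CD and RPTOR. PIK3CD, a catalytic subunit of PI3K, was at 10.7, 10.8 and 10.9 FPKM in ADAMTS1 libraries and 12.5, 12.4 and 13.3 FPKM in Vector libraries (limma adjusted p = 0.116). RPTOR, a subunit of mTORC1, was at 12.9 to 13.1 FPKM in ADAMTS1 libraries and 14.5 to 15.4 FPKM in Vector libraries (limma adjusted p = 0.155). The groups did not overlap for these genes and for TSC1 and FOXO3, 4 of the 23 tested, against 18.8% of all tested genes. Of the 4, TSC1 was higher in ADAMTS1 libraries and the others were lower.

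Of 14 genes for proteases that cut binding proteins, or for their regulators, 11 had a row and 4 were in the fit. All 4 changes were negative, and the median was −0.16 (−0.020 over 11 genes with no filter on low values), against −0.0078 over all tested genes. An unadjusted p under 0.05 was reached by 2 of the 4, against 12.2% of all tested genes. With 4 genes, nothing is read from these counts. PAPPA, the protease of IGFBP4, was at 0.0104 to 0.0423 FPKM in ADAMTS1 libraries and 0.0215 to 0.0271 FPKM in Vector libraries, and its relative PAPPA2, which cuts IGFBP3 and IGFBP5, was at 0.125 to 0.196 FPKM in ADAMTS1 libraries and 0.0930 to 0.150 FPKM in Vector libraries. STC1, a secreted stanniocalcin that inhibits PAPPA, was at 7.55, 7.66 and 7.78 FPKM in ADAMTS1 libraries and 10.7, 9.30 and 9.48 FPKM in Vector libraries. The libraries of the 2 groups were far apart, yet the change of −0.32 ± 0.054 did not pass (limma adjusted p = 0.124). HTRA1, a secreted serine protease that itself carries an IGFBP domain, was at 3.94 to 5.02 FPKM in ADAMTS1 libraries and 5.46 to 5.83 FPKM in Vector libraries (limma adjusted p = 0.262), and was named after its values were seen. ADAM9 was at 19.8 ± 0.273 FPKM in ADAMTS1 cells and 20.1 ± 0.805 FPKM in Vector cells, and the lysosomal protease gene CTSD was at 25.6 ± 1.62 FPKM in ADAMTS1 cells and 26.5 ± 0.785 FPKM in Vector cells.

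Other proteins built with an IGFBP domain had 8 tested genes, 2 with positive and 6 with negative changes, with a median of −0.034. An unadjusted p under 0.05 was reached by 3 of the 8, ESM1, CCN3 and HTRA1, against 12.2% of all tested genes. HTRA1 is also counted among the proteases above. CCN1 and CCN2, matricellular proteins of the CCN family, were abundant: CCN1 was at 369 ± 2.45 FPKM in ADAMTS1 cells and 376 ± 6.14 FPKM in Vector cells, and CCN2 was at 155 ± 5.09 FPKM in ADAMTS1 cells and 157 ± 2.13 FPKM in Vector cells. CRIM1, a membrane protein that binds bone morphogenetic proteins, was at 89.3 ± 2.59 FPKM in ADAMTS1 cells and 92.0 ± 0.590 FPKM in Vector cells. CCN3, of the same family and named after its values were seen, was at 4.45, 4.05 and 5.11 FPKM in ADAMTS1 libraries and 4.03, 3.74 and 3.53 FPKM in Vector libraries, with no overlap (change 0.21 ± 0.080, limma adjusted p = 0.363). The widest difference in the lists was that of ESM1, a proteoglycan known as endocan, named after its values were seen. It was at 6.50, 7.41 and 6.72 FPKM in ADAMTS1 libraries and 3.15, 4.27 and 3.28 FPKM in Vector libraries, with no overlap. The change of 0.79 ± 0.097 did not pass among all tested genes (limma adjusted p = 0.0753), and it passed among genes with a mean of at least 5 FPKM (adjusted p = 0.0172) and without Vector replicate 2 (adjusted p = 0.0406).

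Genes for described partners of the IGFBP3 protein had 8 tested members, with a median change of −0.032 and 1 gene, RXRA, at an unadjusted p under 0.05. RXRA, a nuclear receptor that binds IGFBP3 in the nucleus, was named after its values were seen; it was at 7.06, 7.13 and 7.44 FPKM in ADAMTS1 libraries and 8.17, 7.99 and 8.01 FPKM in Vector libraries (limma adjusted p = 0.238). XRCC6, a DNA end-binding protein, was at 201 ± 4.13 FPKM in ADAMTS1 cells and 207 ± 3.79 FPKM in Vector cells, and its partner XRCC5 was at 77.3 ± 0.681 FPKM in ADAMTS1 cells and 78.5 ± 0.886 FPKM in Vector cells. CAV1, the caveolae protein, was at 129 ± 4.23 FPKM in ADAMTS1 cells and 125 ± 0.633 FPKM in Vector cells. Of the RNA-binding proteins named for IGF2 mRNA, IGF2BP2 was at 40.7 ± 0.0708 FPKM in ADAMTS1 cells and 40.9 ± 1.17 FPKM in Vector cells. IGF2BP3 was at 2.86, 2.82 and 2.64 FPKM in ADAMTS1 libraries and 3.25, 2.98 and 3.34 FPKM in Vector libraries. These groups did not overlap, and IGF2BP3 alone of the 2 tested had an unadjusted p under 0.05 (limma adjusted p = 0.385). IGF2BP1 was at or next to 0 in all 6 libraries.

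The genes whose profile over the 6 libraries was most like that of IGFBP3 were sought among 6950 tested genes with a mean of at least 5 FPKM, members left out. Likeness was the root mean square difference between log2(FPKM + 1) profiles after each was centred on its mean. The 5 nearest were THBS1 (0.031), CCNE1 (0.039), PLAU (0.040), MSMO1 (0.045) and CARNMT1 (0.049), against a median of 0.17 over the 6950 genes. A flat profile would have stood at 0.16. THBS1 encodes the matrix protein thrombospondin 1, CCNE1 a cyclin of S phase entry, PLAU the urokinase plasminogen activator, MSMO1 a sterol synthesis enzyme and CARNMT1 a carnosine methyltransferase. Each was higher in every ADAMTS1 library than in every Vector library, which follows from the choice by likeness to IGFBP3. Ratios of mean FPKM were 1.22, 1.21, 1.18, 1.21 and 1.19 in that order, beside 1.26 for IGFBP3. With 6 libraries in 2 groups, this likeness is a description and carries no test.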

How the data were processed

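The authors deposited 1 table of FPKM per gene and library, and the submitters' processing notes name FastQC, HISAT2, StringTie and the build hg38, with no versions or roles; the annotation, RNA selection and strand setting were not given in the sources used here. Reads were not realigned. FPKM is not a count, so no count test was used, and a change in it is relative to all other transcripts of that library. Relative depth was read from the commonest ratio of low FPKM values (0.02 to 0.5) between libraries. The table had 32119 entries; where a symbol was repeated, the row of highest mean FPKM stood for it (31835 genes remained), and no member was repeated. Genes with a mean of at least 1 FPKM (11897) entered a linear model in limma 3.58.1 under R 4.3.3 (lmFit, eBayes with trend) on log2(FPKM + 1), ADAMTS1 against Vector, two-sided, with Benjamini-Hochberg adjustment over all tested genes and a threshold of 0.05. The fit was also run on simulated data with independent noise. That run checked the size of the estimated change and not the calls, and bears on no result here. Descriptions used Python 3.11.15 with pandas 2.3.3, and plots Matplotlib 3.10.9.

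The members and lists were chosen with earlier results of these data known. The naming rule took all members, list genes past the threshold or otherwise the 3 tested ones with the highest mean, and the 5 profiles nearest to IGFBP3; other genes named were chosen after their values were seen. Alternatives were another pseudocount, 2 other filters, 3 scalings, eBayes without trend, a replicate block, summed repeated symbols and leaving out each library. Positions of genes were read from the authors' deposited table.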

Additional observations from a re-analysis of the deposited data

How the results depend on the processing

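The number of genes past the threshold, 8, was 1 with no filter on low values, 31 among genes with a mean of at least 5 FPKM, 3 with a common sum of FPKM and 2 with eBayes without trend. It was 1 to 5 with each library left out. The change of IGFBP3 was positive under each of the 15 alternatives, and its call was kept under 5 of them and lost under 10. It was lost with no filter on low values (0.31, adjusted p = 0.159, with more genes tested), with a common sum of FPKM (0.31, adjusted p = 0.0514) and with eBayes without trend (0.31, adjusted p = 0.161). Without each library in turn the call was also lost (0.30 to 0.33, with fewer samples). The cause of these losses was not tested. With the replicate number as a block, the count was 1 and IGFBP3 stood at 0.31 (adjusted p = 0.174). The labels do not say that the numbers pair samples. The deviations of same-numbered libraries correlated at −0.002, 0.018 and −0.093. Only ADAMTS1 replicate 2 correlated best with its own number (0.018, against 0.016 with Vector replicate 3).

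Members close to 0 changed sign. IGF1R was at 0.00025 with upper quartile scaling and 0.0032 with median of ratios scaling, and ran from −0.030 to 0.030 with each library left out. By the same omission IGFBP4 ran from −0.046 to 0.0029 and IGFBP7 from −0.067 to 0.061. Over all alternatives 0 other members gained a call. Of 209 values of the other members and lists, 17 had the opposite sign, 7 of them for these members and 10 for 3 list medians near 0. The PI3K, AKT, mTOR and FOXO median was −0.0015 with a common sum of FPKM and −0.0087 to 0.010 with each library left out. The mannose 6-phosphate median was −0.014, 0.0029 among genes with a mean of at least 5 FPKM and −0.025 to 0.038 with each library left out. The adaptor median was 0.017 and that of proteases −0.020 with no filter on low values. Of 119 list median values under the alternatives, 9 moved by more than the spread between libraries. The FPKM values hold no absolute depth, so no limit of detection can be given for IGF2 or IGFBP2.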
